A study of Homo sapiens with 9 samples.

Results

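Interferon-stimulated genes are the genes that cells switch on when interferon reaches them. A list of 40 such genes was followed in OV90, an established ovarian cancer cell line, and in its cisplatin-resistant derivatives. The members were taken by symbol from a table of 43424 gene symbols, and each of the 40 was found in it. A member was tested where it reached 1 CPM, its reads scaled to the total of the library, in at least 3 of the 9 libraries. This held for 25 of the 40 members, among 14233 genes in all, and 20 of the 25 reached the minimum in every library. No tested member reached the minimum in libraries of 1 group only. DDX60 reached it in 2 OV90, 3 OV90CisR1 and 0 OV90CisR2 libraries, and so would not have been tested without OV90CisR1. The other 15 members are given as reads at the end of the results. OV90CisR2 and OV90CisR1 are labelled resistant and were grown in MCDB-105 medium to which cisplatin had been added, at a concentration not given in the sources used here. OV90 is labelled sensitive and was grown in MCDB-105 with fetal bovine serum and antibiotics, without mention of the drug. Each group has 3 libraries, and the labels say neither whether these came from separate cultures nor whether either resistant line is a clone. Resistance and the presence of cisplatin cannot be told apart in this design. Messenger RNA was read at its 3' end, and the values are normalised reads, that is, reads divided by 1 factor per library.

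Type I interferons bind a receptor whose kinases, JAK1 and TYK2, activate STAT proteins. A complex that contains STAT2 and IRF9 then binds the interferon-stimulated response element in the promoters of target genes. The targets include sensors of foreign RNA, enzymes that block translation or degrade RNA, proteins that hold viruses at membranes, and the ubiquitin-like protein ISG15. In cancer cells the programme is known to be active at a low level without added interferon, and DNA damage is among the stimuli that can induce it.

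The base sequence of that element was searched for in the promoters of the members. RefSeq promoters of 300 bases, from 250 before to 50 after the start of the gene, were available for 32 of the 40 members on GRCh38.p14. Its core, GAAA and GAAA separated by NN, was searched on both strands and reads TTTC, NN, TTTC where it lies on the other one. Of these 32 members 23 held it, as did 1195 of all 27305 genes with a promoter in the table, or 4.38%. Among the members with a promoter, it was found in 16 of the 22 tested and in 7 of the 10 not tested. Of the members past the threshold in any comparison, 8 have a promoter and 6 of these hold a match, while IRF9 and IFI35 hold none. The promoters below belong to the 4 genes with the smallest adjusted p, among members past the threshold, that hold a match. They run 5' to 3' on the strand of the gene, with matches in capitals. IFIT3 has a pair of annotated starts.
IFIT1, chr10:89392373-89392672, plus strand: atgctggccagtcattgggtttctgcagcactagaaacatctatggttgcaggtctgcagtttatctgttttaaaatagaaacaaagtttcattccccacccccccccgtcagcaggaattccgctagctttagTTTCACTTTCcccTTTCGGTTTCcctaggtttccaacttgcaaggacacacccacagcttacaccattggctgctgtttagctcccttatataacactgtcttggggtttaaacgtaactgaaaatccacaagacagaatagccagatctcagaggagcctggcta
IFIT3, chr10:89327747-89328046, plus strand: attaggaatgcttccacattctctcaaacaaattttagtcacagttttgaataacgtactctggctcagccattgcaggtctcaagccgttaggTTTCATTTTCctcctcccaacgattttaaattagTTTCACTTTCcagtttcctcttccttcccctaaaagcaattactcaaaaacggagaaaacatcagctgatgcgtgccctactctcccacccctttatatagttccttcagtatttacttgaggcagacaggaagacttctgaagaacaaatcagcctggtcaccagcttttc
IFIT3, chr10:89332279-89332578, plus strand: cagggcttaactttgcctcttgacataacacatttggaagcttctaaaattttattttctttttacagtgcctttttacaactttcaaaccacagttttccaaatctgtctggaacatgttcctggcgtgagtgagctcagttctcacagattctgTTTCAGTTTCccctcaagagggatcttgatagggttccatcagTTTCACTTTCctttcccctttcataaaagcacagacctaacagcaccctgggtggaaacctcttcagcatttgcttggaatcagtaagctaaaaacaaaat
IFIH1, chr2:162318635-162318934, minus strand: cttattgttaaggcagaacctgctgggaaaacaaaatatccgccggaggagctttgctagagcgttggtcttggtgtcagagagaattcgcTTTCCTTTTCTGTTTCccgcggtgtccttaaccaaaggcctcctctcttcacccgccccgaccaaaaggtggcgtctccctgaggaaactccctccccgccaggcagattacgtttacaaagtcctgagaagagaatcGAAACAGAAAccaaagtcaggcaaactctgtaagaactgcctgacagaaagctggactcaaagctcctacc
DTX3L, chr3:122564088-122564387, plus strand: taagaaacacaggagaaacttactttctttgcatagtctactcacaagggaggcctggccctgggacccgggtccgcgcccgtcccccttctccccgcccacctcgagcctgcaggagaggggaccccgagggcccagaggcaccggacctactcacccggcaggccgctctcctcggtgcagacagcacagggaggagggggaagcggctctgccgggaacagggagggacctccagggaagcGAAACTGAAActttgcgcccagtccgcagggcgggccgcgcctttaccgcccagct
The matches of IFIT1 began 116 and 103 bases before the start of the gene. In IFIH1 a pair of overlapping matches began 159 and 153 bases before it, and another 21 bases before it. The single match of DTX3L, at 122564332 to 122564341 on chromosome 3, is also the match of PARP9, its neighbour on the opposite strand. A shorter core, TTCNNNGAA, which is bound by STAT dimers, was found in 10 of the 32 members and in 2560 of the 27305 genes, or 9.38%. A match is a run of letters and not a site shown to be bound.

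The libraries held between 5825708 and 7607679 reads. Replicates of a group correlated at 0.978 to 0.982 across the log2 values of tested genes, apart from OV90 replicate 3 and OV90CisR1 replicate 3, which correlated with their groups at 0.955 to 0.957 and 0.941 to 0.942. OV90 replicate 3 bears directly on the interferon-stimulated genes. It was below both other OV90 libraries for 22 of the 25 tested members, against 40.5% of all tested genes. Its median difference from the mean of these libraries was -0.59 on the log2 scale over the members and 0.00 over all tested genes. The normalised reads of the 40 members summed to 3905 to 3931 in OV90CisR2, to 3973 to 4215 in OV90CisR1, and to 5880, 5554 and 3697 in OV90 replicates 1, 2 and 3. OV90 replicate 3 therefore had the lowest sum of the 9 libraries. The labelled cell type was read from 11 markers of ovarian carcinoma, of which 2 reached the filter. EPCAM, an epithelial adhesion protein, had 116, 140 and 140 reads summed over OV90CisR2, OV90CisR1 and OV90, and KRT8, a keratin, had 221, 48 and 35. The defining markers PAX8 and MUC16 had 0, 1 and 0 and 0, 1 and 0 reads, and KRT19 had 0 in all libraries, so the labelled cell type was not borne out by these. Each count of members is given for all 9 libraries and also for 7, without OV90 replicate 3 and OV90CisR1 replicate 3. That OV90 replicate 3 was low in these genes was known when this alternative was chosen, so a larger count of falls in 7 libraries is not independent evidence of a fall.

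**Figure D1:**
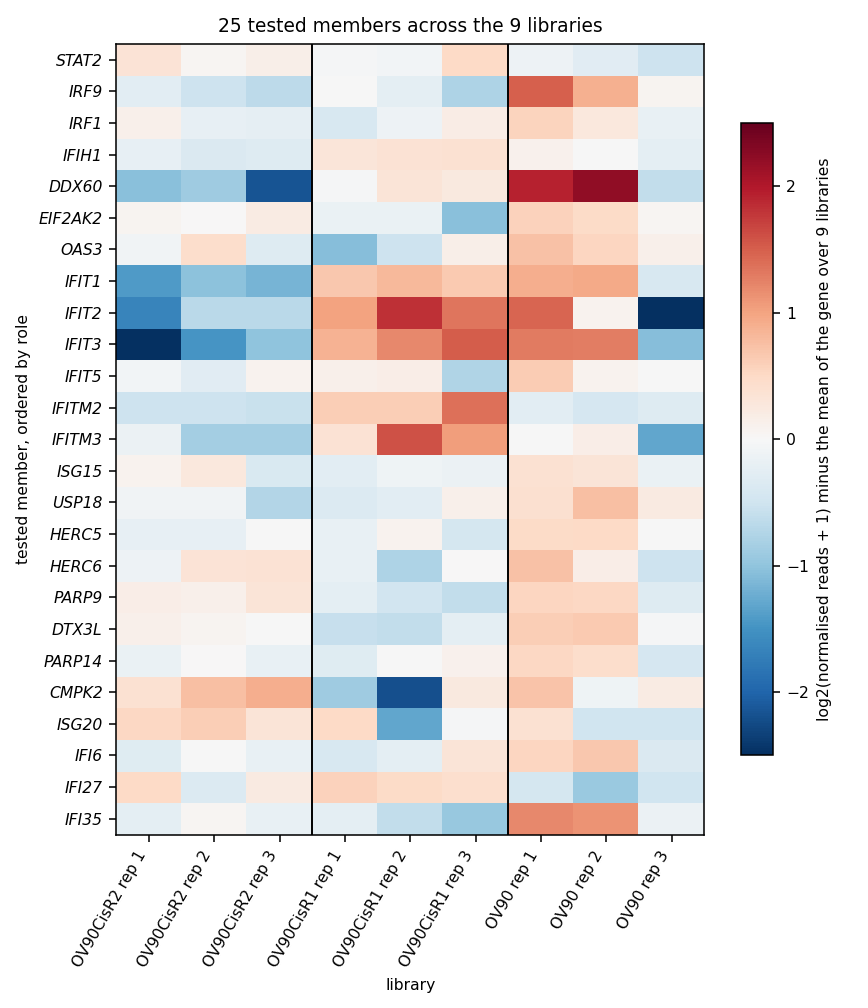
Each row is a tested member and each column a library, coloured by log2(normalised reads + 1) minus the mean of the gene over the 9 libraries. OV90 replicates 1 and 2 are above the mean for most genes and OV90 replicate 3 is not. IFIT1, IFIT2 and IFIT3 are low in the 3 OV90CisR2 libraries and high in the 3 OV90CisR1 libraries.

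Of the 25 tested members, 1 fell in OV90CisR2 against OV90, beside 0.941% of all tested genes. In OV90CisR1, 4 fell and 2 rose, beside 7.29% and 8.54%. In OV90CisR2 the IFIT1 gene, which encodes a protein that binds foreign RNA, was that member, and its level was 14.6 ± 2.19 normalised reads, against 53.3 ± 23.6 in OV90 (SD, n = 3 each). In OV90CisR1, IFIT1 had 57.5 ± 3.54 normalised reads and did not pass. There IRF9, EIF2AK2, DTX3L and IFI35 were lower than in OV90, and IFITM2 and IFI27 were higher. Set directly against OV90CisR1, OV90CisR2 had lower IFIT1, IFIT3, IFITM2 and IFIH1.

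These counts are from limma with all 9 libraries, at an adjusted p under 0.05. In OV90CisR2 against OV90, 0 members rose, beside 2.35% of all tested genes (2 members were higher and 7 lower at an unadjusted p under 0.05). In OV90CisR2 against OV90CisR1, 4 members fell, beside 4.9% of all, and 0 rose, beside 5.16% (4 higher and 7 lower at an unadjusted p under 0.05). The share of members that rose in OV90CisR1 was close to that of all genes, and the share that fell was 16%. The median log2 fold change of the tested members was -0.32 in OV90CisR2 and -0.39 in OV90CisR1 against OV90, where all tested genes had medians of 0.00 and -0.01. It was 0.01 between the resistant lines, beside 0.03 over all genes. Both comparisons with OV90 use the same OV90 libraries and are therefore not independent of each other.

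With 7 libraries, 14 of 25 tested members fell in OV90CisR2 against OV90, beside 11.6% of all tested genes, and 0 rose, beside 14% (limma; 1 was higher at an unadjusted p under 0.05). In OV90CisR1, 14 fell and 2 rose, beside 13.6% and 13.8%. Between OV90CisR2 and OV90CisR1, 7 fell and 5 rose, beside 12% and 14.4%. The medians of the members were -0.57, -0.62 and 0.04 in these comparisons. Leaving out single libraries moved the counts as well, for all tested genes and for members. With 9 libraries 2252 of all tested genes passed in OV90CisR1, and 939, 1358 and 2467 without OV90 replicate 1, 2 and 3. In OV90CisR2 these were 468, then 223, 274 and 1312. There 184, 196 and 177 passed without OV90CisR2 replicate 1, 2 and 3. Between the lines 1433 passed with 9 libraries and 2327 without OV90 replicate 3. The member counts moved as follows. The 4 falls in OV90CisR1 became 0 without OV90 replicate 1 or 2, 9 without OV90 replicate 3, 2 without OV90CisR1 replicate 1, 1 without OV90CisR1 replicate 2, and 2 without any single OV90CisR2 library. The 2 rises became 1 without any single library other than OV90CisR2 replicate 2. The 1 fall in OV90CisR2 became 0 without OV90 replicate 1 or 2 or any single OV90CisR2 library, 7 without OV90 replicate 3 and 4 without OV90CisR1 replicate 3. The 4 falls between the resistant lines became 7 without OV90 replicate 3 and 3 without OV90CisR2 replicate 1 or 3, and 1 member rose there without OV90 replicate 3 or OV90CisR1 replicate 3. A fit of OV90CisR1 and OV90 alone ended the calls of IRF9, EIF2AK2, DTX3L, IFI27 and IFI35 (limma adjusted p 0.077 to 0.11) and not that of IFITM2. The calls of IRF9 and IFI27 also ended with a pseudocount of 0.1 (0.052 and 0.05) and with no filter (0.068 and 0.13), that of IRF9 with TMM scaling (0.052), and that of IFI27 with the replicate block (0.066).

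The same counts were made with tests on the recovered reads of all 9 libraries. With edgeR, 3 members fell and 0 rose in OV90CisR2 against OV90 (1.19% and 2.37% of all tested genes), and 4 fell and 1 rose in OV90CisR1 (7.04% and 9.02%). Between the resistant lines edgeR found 5 that fell and 0 that rose (5.62% and 5.02%). With DESeq2 the counts were 4 and 0 in OV90CisR2 (2.43% and 3.74%), 5 and 2 in OV90CisR1 (9.32% and 10.3%), and 6 and 0 between the resistant lines (7.17% and 6.98%). The members added by either tool were DDX60, IFIT3 and IRF9 in OV90CisR2, OAS3 and IFIH1 in OV90CisR1, and IFITM3 and IFIT2 between the lines.

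**Figure D2:**
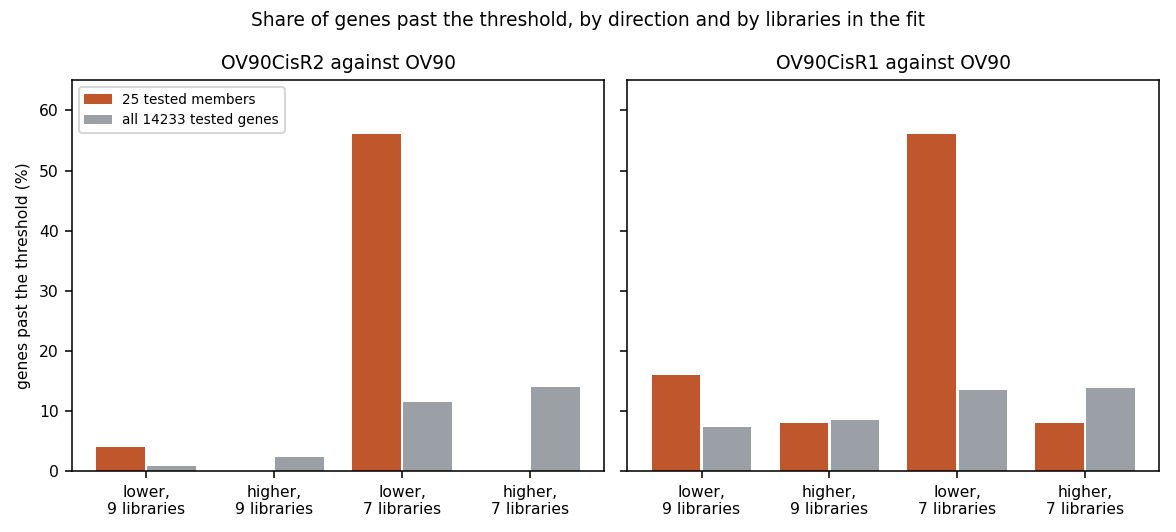
Bars give the percentage of the 25 tested members and of all 14233 tested genes past the threshold, by direction. With 9 libraries 4% and 16% of members fell in OV90CisR2 and OV90CisR1, and with 7 libraries 56% fell in each.

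The IFIT genes lie side by side on chromosome 10 and encode proteins that bind viral RNA or each other. IFIT1 (chromosome 10, 89392623 to 89406487) recognises RNA whose cap lacks a host methyl group. It had 12.3, 16.6 and 14.96 normalised reads in OV90CisR2, 55.8, 61.5 and 55.1 in OV90CisR1 and 65.8, 68.1 and 26.1 in OV90. The OV90CisR2 libraries lay below every other library, and the OV90CisR1 libraries lay within the range of OV90. The log2 fold change of IFIT1 was -1.69 ± 0.35 in OV90CisR2 against OV90 (SE; limma adjusted p = 0.025) and -1.91 ± 0.35 against OV90CisR1 (adjusted p = 0.0079). The first call was lost without OV90 replicate 1 or 2 or any single OV90CisR2 library (adjusted p 0.081 to 0.13). The second kept its call in each setting tried. With 7 libraries the first was -2.13 ± 0.27 (adjusted p = 5.8e-05).

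IFIT3 (chromosome 10, 89327997 to 89340968), which joins IFIT1 in a complex, had 3.07, 7.87 and 11.4 normalised reads in OV90CisR2, 44.4, 56.2 and 69.7 in OV90CisR1 and 59.6, 59.4 and 10.8 in OV90. All OV90CisR1 libraries were above all OV90CisR2 libraries, and OV90 replicate 3 lay among the OV90CisR2 libraries. The difference between the resistant lines was -2.89 ± 0.61 on the log2 scale (limma adjusted p = 0.015, and 0.072 without OV90CisR2 replicate 1). Against OV90 the limma adjusted p of IFIT3 in OV90CisR2 was 0.082 with 9 libraries, where edgeR and DESeq2 called it, and 0.00013 with 7, where the log2 fold change was -2.98 ± 0.41. IFIT2 (chromosome 10, 89302046 to 89309271), another member of that complex, had 3.07, 6.998 and 7.04 normalised reads in OV90CisR2, 24.8, 44.5 and 31.5 in OV90CisR1 and 33.9, 12.7 and 0.899 in OV90. Its lowest value was 1 read, in OV90 replicate 3, and the OV90 libraries overlapped those of OV90CisR1. IFIT2 did not pass with limma and 9 libraries (adjusted p = 0.77 in OV90CisR2 and 0.16 in OV90CisR1 against OV90, and 0.091 between the lines), and DESeq2 called it between the lines. With 7 libraries IFIT2 was lower in OV90CisR2 than in OV90, at -1.77 ± 0.50 (adjusted p = 0.016), and than in OV90CisR1, at -2.42 ± 0.50 (adjusted p = 0.0022). Its fold change in OV90CisR2 against OV90 turned positive without OV90 replicate 1.

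IFIT5 (chromosome 10, 89414568 to 89420997), which binds triphosphorylated RNA, had 121, 104 and 135 normalised reads in OV90CisR2, 138, 141 and 74.2 in OV90CisR1 and 196, 134 and 125 in OV90, and the groups overlapped (adjusted p = 0.59 in OV90CisR2 and 0.33 in OV90CisR1 against OV90). IFIT1, IFIT2 and IFIT3 together summed to 18.4, 31.5 and 33.4 normalised reads in OV90CisR2, 125, 162 and 156 in OV90CisR1, and 159, 140.2 and 37.8 in OV90. In RefSeq all 4 IFIT genes overlap LIPA, the lysosomal lipase. How the authors counted strand is not given in the sources used here, so reads of overlapping genes may be shared. LIPA had 253 ± 28.2 normalised reads in OV90CisR2, 419 ± 124 in OV90CisR1 and 309.8 ± 57.6 in OV90 (SD, n = 3 each). Its adjusted p between the resistant lines was 0.072, with a log2 fold change of -0.69, and its part in the IFIT values was not tested. Here as in any bulk sample, fewer cells that express a gene and less RNA per cell cannot be told apart.

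**Figure D3:**
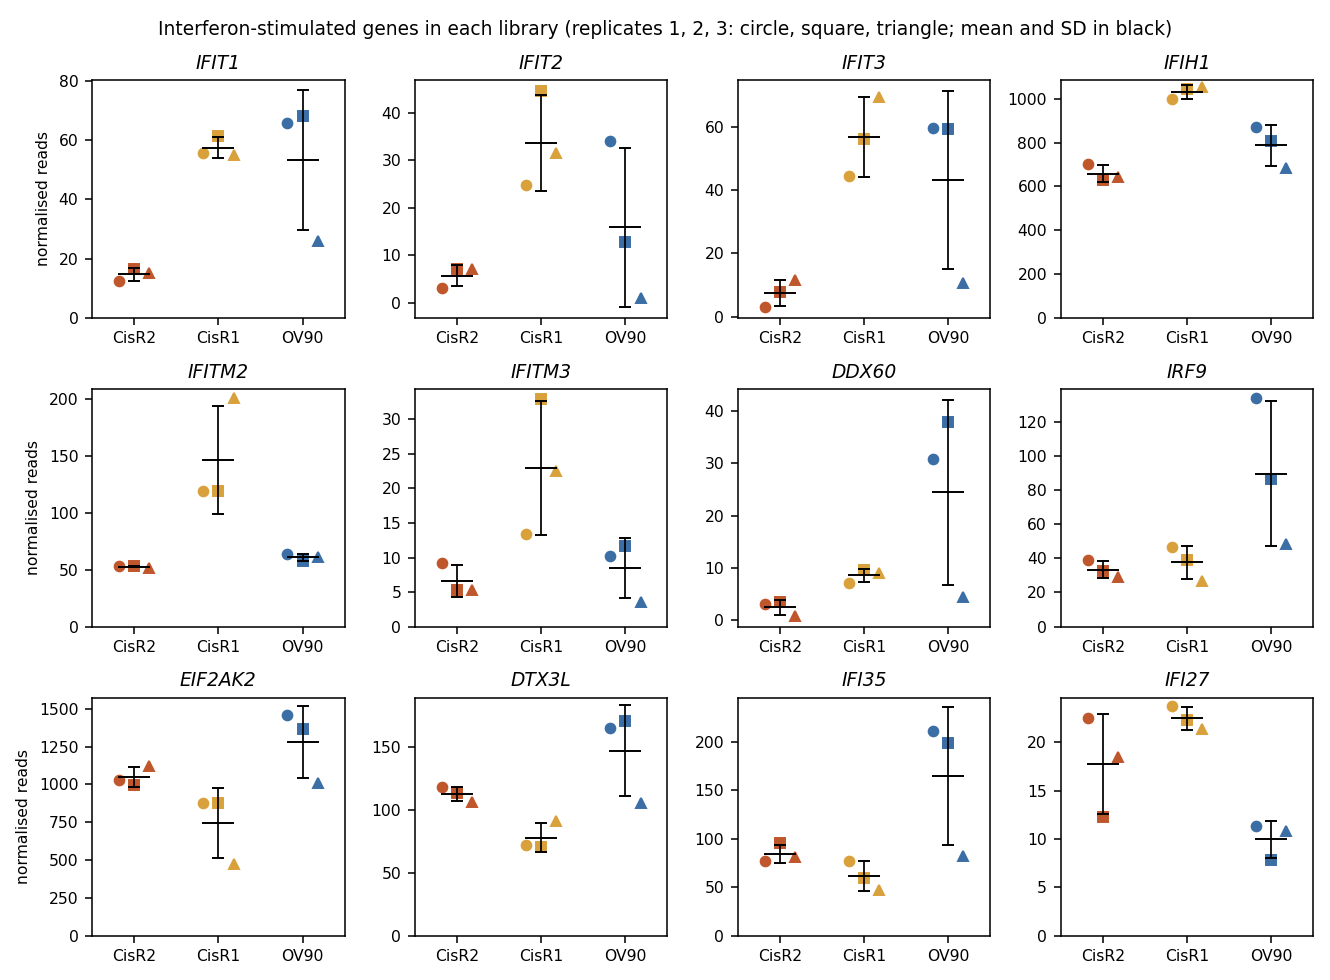
Points are normalised reads per library for 12 members, with the mean and SD of each group in black and replicate 3 as a triangle. IFIT1, IFIT2 and IFIT3 are low in each OV90CisR2 library and in OV90 replicate 3, IFITM2 is higher in each OV90CisR1 library than in any other, and IFI35 is near 200 only in OV90 replicates 1 and 2.

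The IFITM proteins sit in cell and endosomal membranes and limit the fusion of viruses with them. IFITM2 (chromosome 11, 307816 to 309395) had 53.2, 53.4 and 51.9 normalised reads in OV90CisR2, 119, 119 and 201 in OV90CisR1 and 63.8, 57.4 and 61.2 in OV90. Each OV90CisR1 library was above every OV90CisR2 and OV90 library, and OV90CisR1 replicate 3 was the highest. IFITM2 differed by 1.21 ± 0.23 on the log2 scale in OV90CisR1 against OV90 (SE; limma adjusted p = 0.0074) and -1.41 ± 0.23 in OV90CisR2 against OV90CisR1 (adjusted p = 0.0043). Both calls held in each setting tried, and with 7 libraries the values were 0.96 ± 0.21 and -1.15 ± 0.19. IFITM3 (chromosome 11, 319676 to 320860), its neighbour, had 9.21, 5.25 and 5.28 normalised reads in OV90CisR2, 13.4, 32.9 and 22.5 in OV90CisR1 and 10.3, 11.7 and 3.598 in OV90. It too was highest in OV90CisR1, but with 9 libraries its limma adjusted p was 0.083 against OV90 and 0.064 between the resistant lines, where edgeR and DESeq2 called it. With 7 libraries the difference between the lines was -1.58 ± 0.48 (limma adjusted p = 0.025), and the adjusted p in OV90CisR1 against OV90 was 0.23. IFITM1, IFITM2 and IFITM3 are close paralogues, so their reads may be shared between them.

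Of the 3 tested transcription factors, IRF9 passed, in OV90CisR1. IRF9 (chromosome 14, 24161265 to 24166565), the DNA-binding part of the complex with STAT2, had 38.9, 32.4 and 29.03 normalised reads in OV90CisR2, 46.5, 39.2 and 26.97 in OV90CisR1 and 134, 86.6 and 48.6 in OV90. Every library of both resistant lines was below every OV90 library, and the OV90 libraries differed widely among themselves. In the test IRF9 had a log2 fold change of -1.15 ± 0.35 in OV90CisR1 against OV90 (limma adjusted p = 0.049). It passed by a narrow margin and was lost without any single library other than OV90 replicate 3 (adjusted p 0.055 to 0.17). In OV90CisR2 the limma adjusted p of IRF9 was 0.077, and DESeq2 called it lower. With 7 libraries IRF9 was lower in both lines, at -1.67 ± 0.25 in OV90CisR2 (adjusted p = 0.00027) and -1.31 ± 0.28 in OV90CisR1 (adjusted p = 0.0029).

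STAT2 (chromosome 12, 56341597 to 56360107), the partner of IRF9, had 168, 136 and 147 normalised reads in OV90CisR2, 129, 126 and 189 in OV90CisR1 and 121, 109 and 92.6 in OV90. All 6 resistant libraries were above the 3 OV90 libraries, without passing with limma (adjusted p = 0.24 in OV90CisR2 and 0.15 in OV90CisR1). IRF1 (chromosome 5, 132481609 to 132490773), a transcription factor that responds to interferon gamma, had 209.8, 166 and 165 normalised reads in OV90CisR2, 146, 177 and 219 in OV90CisR1 and 283, 233 and 169.99 in OV90. The groups of IRF1 overlapped (adjusted p = 0.5 and 0.32). With 7 libraries IRF1 was lower in OV90CisR2 (log2 fold change -0.52 ± 0.16, adjusted p = 0.025) and in OV90CisR1 (-0.67 ± 0.17, adjusted p = 0.009).

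Among the proteins that detect foreign RNA, IFIH1 (chromosome 2, 162267074 to 162318684) encodes a helicase that recognises long double-stranded RNA. It had 704, 627 and 644 normalised reads in OV90CisR2, 997, 1043 and 1055 in OV90CisR1 and 869, 809 and 684 in OV90. The 3 OV90CisR1 libraries were above all OV90 libraries, and the OV90CisR2 libraries were below all OV90CisR1 libraries. The log2 fold change of IFIH1 was -0.65 ± 0.13 in OV90CisR2 against OV90CisR1 (limma adjusted p = 0.01, and 0.057 without OV90CisR2 replicate 3). Against OV90 neither line passed with limma and 9 libraries (adjusted p = 0.33 in OV90CisR2 and 0.054 in OV90CisR1), and DESeq2 called IFIH1 higher in OV90CisR1. With 7 libraries IFIH1 was lower in OV90CisR2 than in OV90, at -0.35 ± 0.09 (limma adjusted p = 0.012), and did not pass in OV90CisR1 (0.051). DDX60 (chromosome 4, 168216294 to 168325979), a helicase that promotes such sensing, had 3.07, 3.499 and 0.8798 normalised reads in OV90CisR2, 7.23, 9.55 and 8.99 in OV90CisR1 and 30.8, 37.96 and 4.497 in OV90. DDX60 was at 4 reads or fewer in each OV90CisR2 library, and its OV90 mean rested on replicates 1 and 2. It did not pass with limma and 9 libraries (adjusted p = 0.076 in OV90CisR2 and 0.34 in OV90CisR1), while edgeR and DESeq2 called its fall in OV90CisR2. With 7 libraries it fell in both lines, at -3.44 ± 0.53 in OV90CisR2 (adjusted p = 0.00028) and -1.92 ± 0.58 in OV90CisR1 (adjusted p = 0.023) on the log2 scale.

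EIF2AK2 (chromosome 2, 37099210 to 37156980) encodes PKR, a kinase that halts translation when it binds double-stranded RNA. It had 1033, 995 and 1125 normalised reads in OV90CisR2, 879, 876 and 474 in OV90CisR1 and 1461, 1370.5 and 1010.1 in OV90. All OV90CisR1 libraries were below all OV90 libraries, and OV90CisR1 replicate 3 was far below its group. EIF2AK2 thus had a log2 fold change of -0.82 ± 0.23 in OV90CisR1 against OV90 (limma adjusted p = 0.034). The call was lost without OV90 replicate 1 or 2 or any single OV90CisR2 library (adjusted p 0.053 to 0.12). With 7 libraries the log2 fold change was -0.69 ± 0.10 (adjusted p = 0.00012), and EIF2AK2 was lower in OV90CisR2 also (-0.43 ± 0.09, adjusted p = 0.0023). GPATCH11, which overlaps EIF2AK2, had 373 ± 51.7 normalised reads in OV90CisR1 and 483 ± 86.7 in OV90 (SD, n = 3 each; adjusted p = 0.14), and its part in the EIF2AK2 values was not tested.

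OAS3 (chromosome 12, 112938474 to 112973251) was the single tested member of its family, whose enzymes sense double-stranded RNA. It had 80.8, 117 and 68.6 normalised reads in OV90CisR2, 40.3, 59.4 and 94.4 in OV90CisR1 and 143, 125 and 93.5 in OV90. OV90CisR1 replicate 3 reached the OV90 range while the other OV90CisR1 libraries did not. OAS3 missed the threshold with limma in OV90CisR2 (adjusted p = 0.51) and in OV90CisR1 (adjusted p = 0.063), where DESeq2 called it lower. With 7 libraries its log2 fold change in OV90CisR1 was -1.43 ± 0.26 (adjusted p = 0.001).

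In the ISG15 system a ubiquitin-like protein is attached to targets and removed again, and none of its 4 tested genes passed with 9 libraries and limma. ISG15 (chromosome 1, 1013497 to 1014540) itself had 162, 182 and 116 normalised reads in OV90CisR2, 126, 139.99 and 137 in OV90CisR1 and 198, 191 and 135 in OV90, and its groups overlapped (adjusted p = 0.7 in OV90CisR2 and 0.26 in OV90CisR1). USP18 (chromosome 22, 18150170 to 18177397), which removes ISG15 and also damps the interferon receptor, had 34.8, 34.99 and 21.99 normalised reads in OV90CisR2, 28.9, 30.8 and 40.4 in OV90CisR1 and 49.4, 63.3 and 43.2 in OV90. Every resistant library was below every OV90 library, but USP18 did not pass with limma (adjusted p = 0.18 and 0.15). HERC5 (chromosome 4, 88457119 to 88506163), the ligase that attaches ISG15, had 193, 195 and 223 normalised reads in OV90CisR2, 196, 239.7 and 164 in OV90CisR1 and 311, 317 and 223 in OV90 (adjusted p = 0.24 and 0.094). With 7 libraries USP18 and HERC5 were lower in both lines, with log2 fold changes for USP18 of -0.88 ± 0.29 in OV90CisR2 and -0.88 ± 0.31 in OV90CisR1 and for HERC5 of -0.62 ± 0.13 and -0.53 ± 0.14. ISG15 then passed in OV90CisR1 and not in OV90CisR2 (adjusted p = 0.048 and 0.14). HERC6, a relative of HERC5, had adjusted p values of 0.95 and 0.43 and ranged from 12.7 to 38.05 normalised reads over all libraries.

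PARP9 and DTX3L encode proteins that act as a complex in ADP-ribosylation and ubiquitylation, and the genes overlap at their starts, so reads may be shared between them. DTX3L (chromosome 3, 122564338 to 122575203) had 118, 113 and 106 normalised reads in OV90CisR2, 72.3, 69.997 and 91.01 in OV90CisR1 and 165, 170.3 and 105 in OV90. All OV90CisR1 libraries were below all libraries of the other groups, and OV90 replicate 3 was the lowest of the OV90 group. Its log2 fold change was -0.88 ± 0.22 in OV90CisR1 against OV90 (limma adjusted p = 0.021), and the call was lost without OV90 replicate 1 or 2 or OV90CisR1 replicate 1 or 2 (adjusted p 0.054 to 0.083). With 7 libraries it was -1.22 ± 0.17 in OV90CisR1 (adjusted p = 0.00013) and -0.57 ± 0.16 in OV90CisR2 (adjusted p = 0.015). PARP9 (chromosome 3, 122527924 to 122564784) had 71.6, 69.98 and 80.1 normalised reads in OV90CisR2, 53.7, 45.6 and 41.6 in OV90CisR1 and 93.6, 91.5 and 51.3 in OV90. Its OV90CisR1 mean was also the lowest, without passing with limma and 9 libraries (adjusted p = 0.95 in OV90CisR2 and 0.088 in OV90CisR1). With 7 libraries PARP9 was lower in OV90CisR1 than in OV90, at -0.89 ± 0.21 (limma adjusted p = 0.0066). It was then also higher in OV90CisR2 than in OV90CisR1, at 0.57 ± 0.20 (adjusted p = 0.045). PARP14 (chromosome 3, 122680839 to 122730840), another ADP-ribosyltransferase, had 265, 298 and 261 normalised reads in OV90CisR2, 241, 295 and 318 in OV90CisR1 and 422, 399 and 221 in OV90. OV90 replicates 1 and 2 were above all others and OV90 replicate 3 was the lowest of the 9. The adjusted p of PARP14 was 0.57 in OV90CisR2 and 0.49 in OV90CisR1 with 9 libraries, and 0.0032 and 0.0035 with 7.

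**Figure D4:**
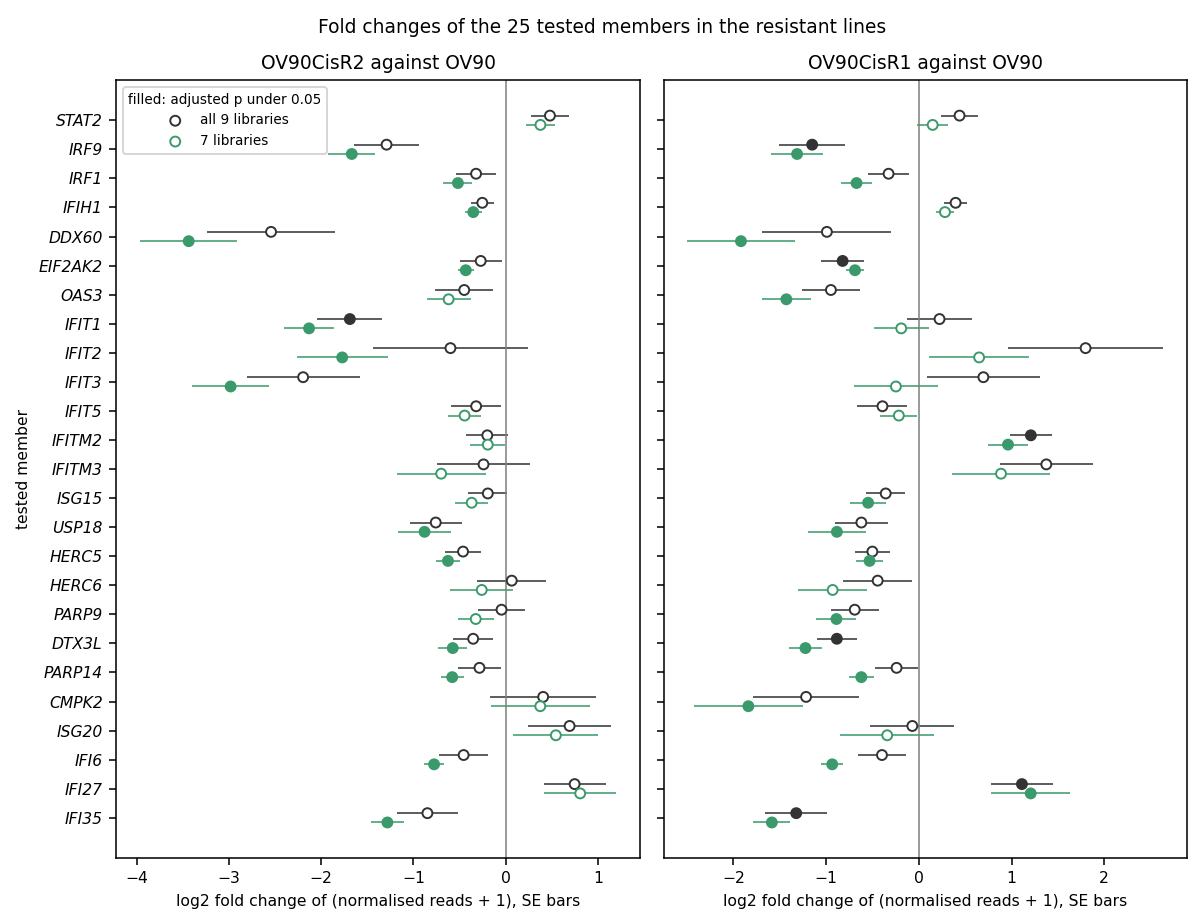
Points are log2 fold changes of the 25 tested members against OV90 with SE bars, for 9 libraries in black and for 7 libraries in green, filled where the adjusted p is under 0.05. Most members lie left of 0 in both lines. IFITM2 and IFI27 lie right of 0 and are filled in OV90CisR1, and IFIT1 lies left of 0 and is filled in OV90CisR2.

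IFI35 (chromosome 17, 43006784 to 43014456), a leucine zipper protein, had 76.8, 95.3 and 80.9 normalised reads in OV90CisR2, 77.5, 59.4 and 47.2 in OV90CisR1 and 212, 199.5 and 82.7 in OV90. OV90 replicates 1 and 2 were the highest of the 9 libraries, and OV90 replicate 3 was at the level of the resistant libraries. The log2 fold change of IFI35 was -1.32 ± 0.33 in OV90CisR1 against OV90 (limma adjusted p = 0.024), and the call was lost without OV90 replicate 1 or 2 or OV90CisR1 replicate 2 (adjusted p 0.052 to 0.094). In OV90CisR2 the adjusted p was 0.21, and 0.00015 with 7 libraries, where the log2 fold change was -1.28 ± 0.18. IFI6 (chromosome 1, 27666064 to 27672192), a small membrane protein, had 466, 574 and 505 normalised reads in OV90CisR2, 435, 485 and 720.2 in OV90CisR1 and 836, 923 and 451 in OV90. Here too OV90 replicates 1 and 2 were above all others. IFI6 did not pass with limma and 9 libraries (adjusted p = 0.41 in OV90CisR2 and 0.31 in OV90CisR1) and was lower in both with 7, at -0.77 ± 0.11 and -0.93 ± 0.12.

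IFI27 (chromosome 14, 94105894 to 94116690), a mitochondrial and nuclear membrane protein related to IFI6, had the opposite sign. It had 22.5, 12.2 and 18.5 normalised reads in OV90CisR2, 23.8, 22.3 and 21.3 in OV90CisR1 and 11.3, 7.79 and 10.8 in OV90. Each resistant library was above each OV90 library. On the log2 scale the difference was 1.11 ± 0.34 in OV90CisR1 against OV90 (limma adjusted p = 0.046). This call was lost without any single library other than OV90CisR2 replicate 2 (adjusted p 0.051 to 0.12), and it was lost with edgeR (adjusted p = 0.053) and DESeq2 (adjusted p = 0.059). In OV90CisR2 the adjusted p was 0.27. CMPK2 (chromosome 2, 6840553 to 6866635), a mitochondrial nucleotide kinase, had 11.3, 14.9 and 16.7 normalised reads in OV90CisR2, 4.13, 1.06 and 10.1 in OV90CisR1 and 14.4, 7.79 and 9.89 in OV90. OV90CisR1 replicate 2 held 1 read, and the gene overlaps RSAD2. CMPK2 did not pass with limma and 9 libraries (adjusted p = 0.77 in OV90CisR2 and 0.16 in OV90CisR1 against OV90, and 0.093 between the lines), and with 7 it was higher in OV90CisR2 than in OV90CisR1 by 2.22 ± 0.54 (adjusted p = 0.0067). It was then also lower in OV90CisR1 than in OV90, at -1.84 ± 0.59 (adjusted p = 0.03). The OV90CisR1 libraries in that fit held 4 reads and 1 read. ISG20, a ribonuclease, ranged from 7.42 to 30.6 normalised reads over the libraries and did not pass with limma (adjusted p = 0.46 and 0.93 against OV90).

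The 15 members below the filter include genes commonly used to read an interferon response, and each had 10 reads or fewer in every library. The 15 together held 185 reads over the 9 libraries, with 12 to 22 per library in OV90CisR2, 16 to 26 in OV90CisR1, and 32, 32 and 5 in OV90 replicates 1, 2 and 3. MX1, a GTPase that traps viral particles, had 9, 4 and 17 reads summed over the 3 libraries of OV90CisR2, OV90CisR1 and OV90, and its relative MX2 had 0, 1 and 5. OAS1 had 2, 1 and 3, OAS2 had 0, 4 and 2 and OASL had 4, 11 and 2. RSAD2, which encodes viperin, had 9, 8 and 3. These sums were too low to compare. SAMD9 and SAMD9L, which restrict poxviruses, had 9, 10 and 16 and 0, 4 and 4 reads. IFITM1 had 2, 4 and 3, BST2, which tethers virus particles to cells, 3, 5 and 3, and IRF7, the regulator of interferon genes, 1, 2 and 1. IFI44 had 5, 6 and 2 and IFI44L had 10, 0 and 0, of which 9 were in OV90CisR2 replicate 1. XAF1, which promotes apoptosis, had 0, 2 and 3 and TRIM22 had 0, 0 and 5. A count of 3 reads corresponded to 2.62 to 3.37 normalised reads, so fewer reads than this were not told from 0. PCR reads are not independent molecules, and these limits cover counting error only.

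The interferons themselves were at the limit of detection. Of 22 interferon genes, 17 had 0 reads in all libraries, and the 22 together held 1 read in OV90CisR2, 2 in OV90CisR1 and 10 in OV90. Of 9 receptor chains and kinases, 7 were tested. JAK1 was the single one past the threshold, at 643 ± 83.8 normalised reads in OV90CisR1 and 969 ± 204 in OV90 (log2 fold change -0.58 ± 0.17, limma adjusted p = 0.041). Of all tested genes, 7.29% fell in OV90CisR1 with limma, and 0.941% fell and 2.35% rose in OV90CisR2. In OV90CisR2 against OV90, 0 of the 7 passed in 9 libraries with limma, edgeR or DESeq2 (1 higher and 1 lower at an unadjusted p under 0.05). With 7 libraries 1 rose and 1 fell there, beside 14% and 11.6% of all tested genes. Of 7 tested signal transducers and interferon regulatory factors outside the members, 0 passed in OV90CisR2 or OV90CisR1 with limma (3 lower in OV90CisR2, and 2 lower and 1 higher in OV90CisR1, at an unadjusted p under 0.05). There edgeR called 0 in either line. DESeq2 called 2 falls in OV90CisR2 and 1 in OV90CisR1, beside 2.43% and 9.32% of all tested genes. With 7 libraries 3 fell and 1 rose in OV90CisR2, beside 11.6% and 14%, and 2 fell in OV90CisR1, beside 13.6%.

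Of 16 tested genes of nucleic acid sensing, 1 rose and 1 fell in OV90CisR1, beside 8.54% and 7.29% of all tested genes. PQBP1, a cofactor in the sensing of DNA, had 359 ± 52.04 normalised reads in OV90CisR1 and 236 ± 23.2 in OV90 (log2 fold change 0.60 ± 0.15, limma adjusted p = 0.023). AZI2, an adaptor of the TBK1 kinase, had 234 ± 43.5 normalised reads in OV90CisR1 and 349.8 ± 29.2 in OV90 (log2 fold change -0.59 ± 0.17, limma adjusted p = 0.04), and did not pass with 7 libraries (adjusted p = 0.059). In OV90CisR2 against OV90, 0 of the 16 passed with limma (4 lower and 2 higher at an unadjusted p under 0.05). For the same genes edgeR called 0, and DESeq2 called 1 fall, beside 2.43% of all tested genes. With 7 libraries 5 fell and 3 rose, beside 11.6% and 14%. Of 19 tested negative regulators, PTPN2, a phosphatase of JAK and STAT proteins, fell in OV90CisR1, beside 7.29% of all tested genes. It had 324 ± 28.97 normalised reads in OV90CisR1 and 542 ± 44.9 in OV90 (log2 fold change -0.74 ± 0.13, limma adjusted p = 0.0054). In OV90CisR2, 0 of the 19 passed in 9 libraries with limma (0 higher and 2 lower at an unadjusted p under 0.05), edgeR or DESeq2. With 7 libraries 2 of the 19 fell in OV90CisR2 and 2 in OV90CisR1, beside 11.6% and 13.6% of all tested genes, and 0 rose in either.

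Of 10 tested enzymes that edit or degrade RNA and nucleotides, 2 were higher in OV90CisR2 than in OV90CisR1 and 0 were lower, beside 5.16% and 4.9% of all tested genes (limma, 3 higher and 0 lower at an unadjusted p under 0.05; 0 lower with edgeR or DESeq2). With 7 libraries 3 of the 10 were higher and 1 was lower, beside 14.4% and 12%. ADAR, which edits double-stranded RNA, had 1203 ± 40.7 normalised reads in OV90CisR2, 756 ± 110.3 in OV90CisR1 and 1173 ± 107 in OV90 (SD, n = 3 each). Its log2 fold change was -0.64 ± 0.14 in OV90CisR1 against OV90 (limma adjusted p = 0.013) and 0.68 ± 0.14 between the resistant lines (adjusted p = 0.012). SAMHD1, which degrades deoxynucleotides, had 183 ± 16.3 normalised reads in OV90CisR2 and 97.1 ± 14.2 in OV90CisR1 (log2 fold change 0.92 ± 0.18, limma adjusted p = 0.01). SKIC2, a helicase of RNA decay, rose in OV90CisR1, at 234 ± 36.3 normalised reads in OV90CisR1 and 138 ± 16.8 in OV90 (log2 fold change 0.75 ± 0.17, limma adjusted p = 0.016).

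A wider list of 87 other interferon-stimulated genes, of which 60 were tested and which shares genes with the lists above, ADAR and SAMHD1 among them, gave 10 falls and 1 rise in OV90CisR1 against OV90, beside 7.29% and 8.54% of all tested genes. In OV90CisR2 it gave 2 falls and 0 rises, beside 0.941% and 2.35% (limma; 9 lower and 2 higher at an unadjusted p under 0.05; 2 falls and 0 rises with edgeR, 4 and 0 with DESeq2). With 7 libraries it gave 17 falls and 6 rises in OV90CisR2, beside 11.6% and 14%, and 19 falls and 5 rises in OV90CisR1, beside 13.6% and 13.8%. The median log2 fold change with 9 libraries was -0.13 in OV90CisR2 and -0.28 in OV90CisR1. Among the 60, SPATS2L had the largest fall in OV90CisR1. It had 141 ± 12.8 normalised reads in OV90CisR2, 17.1 ± 3.19 in OV90CisR1 and 89.98 ± 8.92 in OV90, with a log2 fold change of -2.35 ± 0.22 in OV90CisR1 against OV90 (limma adjusted p = 0.00016) and 2.98 ± 0.22 between the resistant lines (adjusted p = 4e-05). PSMB9, a subunit of the immunoproteasome, had 85.5 ± 20.9 normalised reads in OV90CisR1 and 254 ± 63.03 in OV90 (log2 fold change -1.56 ± 0.23, limma adjusted p = 0.0021). APOL2, an apolipoprotein L, had 53.3 ± 9.48 normalised reads in OV90CisR1 and 112 ± 29.9 in OV90 (log2 fold change -1.03 ± 0.24, limma adjusted p = 0.017). B2M, the light chain of MHC class I, rose, with 3944 ± 593 normalised reads in OV90CisR1 and 2519 ± 138 in OV90 (log2 fold change 0.64 ± 0.15, limma adjusted p = 0.021). In OV90CisR2 the falls were UBE2L6, the conjugating enzyme for ISG15, with 78.5 ± 7.19 normalised reads in OV90CisR2 and 153 ± 32.6 in OV90 (log2 fold change -0.94 ± 0.20, limma adjusted p = 0.024), and TAP1, a peptide transporter, with 253 ± 11.4 normalised reads in OV90CisR2 and 469 ± 110.0 in OV90 (log2 fold change -0.86 ± 0.19, limma adjusted p = 0.031). Between OV90CisR2 and OV90CisR1, 5 of the 60 rose, SPATS2L, SAMHD1 and PSMB9 the most, and 1 fell, which was B2M. Of all tested genes, 5.16% rose and 4.9% fell there. With 7 libraries 11 of the 60 rose and 6 fell, beside 14.4% and 12%.

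Markers of other cell types were read beside these genes. Of 10 leukocyte markers, 1 was tested, and their summed level was 34.1 to 49.1 normalised reads in OV90CisR2, 82.0 to 143 in OV90CisR1 and 26.1 to 70.95 in OV90. Most of these were CD68, a lysosomal protein that is not confined to leukocytes, with 34.9 ± 3.73 normalised reads in OV90CisR2 and 98.05 ± 32.7 in OV90CisR1 (log2 fold change -1.42 ± 0.37, limma adjusted p = 0.036). PTPRC, which marks leukocytes, had 1, 4 and 3 reads, and CD3E and NKG7 had 0 in all libraries. Of 5 markers of plasmacytoid dendritic cells, a strong source of interferon, CLEC4C, LILRA4 and GZMB also had 0, and IL3RA had 10, 5 and 5 reads. The other, TCF4, a transcription factor found in many cell types, had 5373 to 5452 normalised reads in OV90CisR2, 5262 to 5561 in OV90CisR1 and 5372 to 6324 in OV90. Of 8 fibroblast markers 7 were tested, with summed levels of 4396 to 5734 in OV90CisR2, 7241 to 12050 in OV90CisR1 and 3978 to 5297 in OV90, and the 6 endothelial markers summed to at most 5.84. COL3A1, a fibrillar collagen, had 8776 ± 2865 normalised reads in OV90CisR1 and 3139 ± 373 in OV90 (log2 fold change 1.43 ± 0.25, limma adjusted p = 0.0053). Against OV90, 2 of the 7 rose in OV90CisR1 (COL3A1 and DCN) and 2 in OV90CisR2 (LUM and DCN), beside 8.54% and 2.35% of all tested genes. IFITM2 and COL3A1 were both highest in OV90CisR1. Within OV90CisR1, replicate 3 had the lowest COL3A1 (5470 normalised reads) and the highest IFITM2 (201). DCN had 211 ± 20.6 normalised reads in OV90CisR2 and 80.7 ± 26.3 in OV90CisR1, and LUM had 426 ± 49.7 and 79.02 ± 51.4. Between the resistant lines DCN and LUM were higher in OV90CisR2 (limma adjusted p = 0.0083 and 0.009) and COL3A1 was lower (0.0094). The part of other cell types in the members' values was not tested.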

How the data were processed

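The authors deposited 1 table of normalised values, a signal on the scale of reads, for 43424 gene symbols in 9 libraries. Per the labels' protocols, Trizol RNA went into QuantSeq 3' libraries, which were read single-end on an Illumina NextSeq. Bowtie2, bedtools, edgeR and GRCh38 are named in the submitters' processing notes. The sources used here give no versions, annotation, counting or strand rules. Within every library 100% of the non-zero entries were integer multiples of its smallest one (tolerance 1e-06), so reads were recovered by division, with totals of 5825708 to 7607679. No replicate pair agreed within counting noise (smallest chi-square per degree of freedom 2.04).

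Genes at 1 CPM or more in 3 of 9 libraries entered limma 3.58.1 (R 4.3.3; variance trend, 1 mean per group, all 9 libraries) as log2(value + 1). P-values were adjusted over 14233 genes by the Benjamini-Hochberg method, with a threshold of 0.05. With this pseudocount the fold changes of low genes are understated. Replicates may be technical, since no label calls them separate cultures, and p-values then cover only the spread between these libraries. Alternatives were pseudocounts of 0.1 and 5, no filter and 5 CPM, TMM scaling, edgeR 4.0.16 and DESeq2 1.42.0 on recovered reads, fits of only the groups compared, a replicate block, each library left out, and OV90 replicate 3 and OV90CisR1 replicate 3 left out together. The tests were tried on simulated data with known changes. Members, lists and alternatives were chosen with earlier results of these data known. Values per library are given for members past the threshold in any comparison, with 9 or 7 libraries, and for the 10 members with the highest mean. From each further list up to 3 rises and 3 falls past the threshold are named per comparison, and a result of these lists is not reported here. Promoters and gene positions are from RefSeq on GRCh38.p14, which holds all 40 members.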

Additional observations from a re-analysis of the deposited data

Results flagged for a closer look

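By the direct test of OV90CisR2 against OV90CisR1, 4 members differed between the resistant lines. The log2 fold change in that comparison was -2.89 for IFIT3, -1.91 for IFIT1, -1.41 for IFITM2 and -0.65 for IFIH1, with limma adjusted p = 0.015, 0.0079, 0.0043 and 0.01. In each case all 3 OV90CisR2 libraries were below all 3 OV90CisR1 libraries. The members were picked by the test on these same libraries, so the lack of overlap is not further support. Of all tested genes, 4.9% fell in this comparison. Against OV90 neither line passed with limma and 9 libraries for IFIT3 (adjusted p = 0.082 in OV90CisR2 and 0.45 in OV90CisR1) or IFIH1 (0.33 and 0.054).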

How the results depend on the processing

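Leaving out OV90 replicate 3 and OV90CisR1 replicate 3 together moved every count that was given for all genes and every fall count. All genes past the threshold then numbered 3633 in OV90CisR2 and 3901 in OV90CisR1 against OV90, and 3750 between the resistant lines, against 468, 2252 and 1433 with 9 libraries. Members that fell numbered 14, 14 and 7, members that rose between the lines 5, and the medians against OV90 were -0.57 and -0.62. In OV90CisR1 against OV90 the fit of only the groups compared gave 771 genes, 1 member that rose and 0 that fell. Members that rose in OV90CisR1 numbered 1 with a pseudocount of 0.1, no filter or edgeR. Members that fell in OV90CisR2 numbered 3 with edgeR and 4 with DESeq2, and DESeq2 called 878 genes there. Same-numbered libraries did not deviate together (correlations from -0.31 to 0.09, and from -0.20 to 0.34 for differently numbered ones). With 3 libraries per group this cannot show whether the numbers stand for a shared batch. With the replicate block 287 genes passed in OV90CisR2, of which 2 were members that fell, 875 passed between the lines, and 1 member rose in OV90CisR1.

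With single libraries left out, the genes past the threshold ranged from 177 to 1312 in OV90CisR2, 939 to 2467 in OV90CisR1, and 442 to 2327 between the lines. Members that fell ranged from 0 to 7, 0 to 9 and 3 to 7. Members that rose ranged from 1 to 2 in OV90CisR1 and from 0 to 1 between the lines. The medians ranged from -0.573 to -0.163, from -0.536 to -0.194, and from -0.043 to 0.043. IFIT2 in OV90CisR2 against OV90, not past the threshold, turned to 0.329 without OV90 replicate 1 and kept its sign elsewhere, down to -1.772. Over the members whose fold changes were followed, 675 of the values under alternatives kept direction and their side of the threshold. Of the others, 48 lost the call, 65 gained it and 1 turned. The 675 include values that were not past the threshold in the main fit and stayed so, and they are therefore not a count of calls kept. The cause of these shifts was not tested. At this depth the 15 members below the filter held too few reads to compare, and the reason was not tested.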
